A study of Homo sapiens with 24 samples.

Results

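Collagens are assembled from alpha chains, each encoded by its own COL gene, and 43 such genes were followed in 4 human cancer cell lines. They are all genes of the count tables, out of 61533 listed, whose symbol reads COL, a number, A and a number, with pseudogenes, antisense genes and COL17A1 left out. Each line had 3 CAP libraries, from cells exposed for 60 s to Piezo-CAP and sampled at 24 h, and 3 Control libraries, from untreated cells (0 s). Piezo-CAP is cold atmospheric plasma, a weakly ionised gas near room temperature, made with a piezoelectric device. Cal27 derives from a tongue squamous cell carcinoma, Fadu from a hypopharyngeal one and A375 from a melanoma. Hth83 is known by its name as an anaplastic thyroid carcinoma line, and the labels call the cells of all 4 lines head and neck cancer cells of WT genotype. Cal27, A375 and Hth83 grew in DMEM and Fadu in MEM, all with fetal bovine serum, so medium and line cannot be told apart where Fadu is set against the others. Nothing in the labels says that replicates came from separate cultures, so p-values measure the spread between these libraries, which may be technical.

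A collagen molecule is a triple helix of alpha chains, either identical or drawn from several genes. Fibrillar collagens such as types I and V form the cross-striated fibrils of connective tissue, type IV chains form the sheet of the basement membrane, type VI chains form beaded filaments around cells, and type VII forms the anchoring fibrils that tie squamous epithelium to the tissue below. Fibril-associated collagens (FACIT) such as types IX, XII and XVI decorate fibrils, and multiplexins such as type XVIII sit in basement membranes. Fibroblasts make most fibrillar collagen in tissue, whereas epithelial cells make type VII and part of the type IV collagen.

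The libraries held 27.9 to 49.5 M counts. Of the 5 squamous epithelial markers (TP63, KRT5, KRT14, KRT6A and DSG3), all reached 1 TPM in the Control libraries of Cal27, Fadu and Hth83, and 1 did in A375. Their sum moved with treatment. It was 317 to 323 TPM in CAP and 619 to 633 TPM in Control libraries of Cal27, 3908 to 4439 TPM in CAP and 10599 to 11002 TPM in Control libraries of Fadu, and 2716 to 2911 TPM in CAP and 3037 to 3180 TPM in Control libraries of Hth83. In A375 it was 13.9 to 18.4 TPM in CAP and 4.19 to 5.64 TPM in Control libraries, mostly KRT14. Of the 5 melanocyte markers, 2 reached 1 TPM in the Control libraries of A375, SOX10 with 956 TPM and MITF with 4.65 TPM, while PMEL averaged 0.873 TPM, MLANA 0.68 TPM and TYR 0.00692 TPM, so the pigment cell markers were low in the line labelled A375. The 5 summed to 781 to 814 TPM in CAP and 948 to 978 TPM in Control libraries there. Of the thyroid markers given here, Hth83 Control libraries had 27.8 TPM of PAX8 and under 0.1 TPM of TG, TSHR, NKX2-1 and FOXE1, so 4 of these 5 were near 0 there while the squamous markers were present. The 6 fibroblast markers PDGFRA, PDGFRB, DCN, LUM, THY1 and FAP summed to 0 to 0.106 TPM in the CAP libraries and 0.0302 to 0.0526 TPM in the Control libraries of Fadu, and to 0.00948 to 0.0485 TPM in the CAP and 0 to 0.112 TPM in the Control libraries of Hth83. They summed to 1.40 to 2.0 TPM in CAP and 2.04 to 2.09 TPM in Control libraries of Cal27. In A375 they summed to 12.7 to 14.9 TPM in CAP and 15 to 15.2 TPM in Control libraries, led by LUM and PDGFRB. The part of these markers in the collagen results below was not tested.

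Untreated lines differed in which collagens they made. TPM are read counts corrected for a gene length and for library total. Which lengths entered them is given in no source used here. The order of chains within a line and their shares of collagen TPM depend on those lengths. In Hth83 the type VII chain COL7A1 led with 352, 370 and 392 TPM in the 3 Control libraries and made up 64.9% of all collagen TPM. Fadu also had COL7A1 as its leading chain, at 123, 122 and 130 TPM, which was 66.9% of its collagen TPM. By TPM, A375 led with the type IX chain COL9A3 at 316, 324 and 334 TPM, or 42.6% of its collagen TPM. COL7A1 was at 12.5, 11.8 and 13.7 TPM there. By counts COL4A2 stood above COL9A3 in A375, with 57632, 38955 and 35347 counts in the Control libraries against 28093, 18321 and 17634. Cal27 had no single leader by TPM: COL6A2 averaged 31.2 TPM, COL7A1 30.7 TPM and COL6A1 28.3 TPM. By counts COL4A2 stood above COL6A2 there, with 4417, 4599 and 4878 counts in the Control libraries against 2577, 2760 and 2664. Of the 43 chains, 13 reached a mean of 10 TPM in some untreated line, 10 further chains reached 1 TPM, and 20 stayed under 1 TPM in every untreated line. In all 4 lines, 9 chains had at least 1 TPM (COL1A1, COL4A1, COL4A2, COL6A1, COL6A2, COL7A1, COL12A1, COL18A1 and COL27A1). Among the 23 chains that reached 1 TPM, A375 had the highest mean TPM for 15, Hth83 for 6, Cal27 for 1 and Fadu for 1. The tally holds for TPM: on TMM-scaled counts COL6A1 and COL18A1, both highest in A375 by TPM, were lower in A375 than in Hth83 (log2 fold change -0.10, adjusted p = 0.0248, and -0.18, adjusted p = 0.0059, edgeR).

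**Figure D1:**
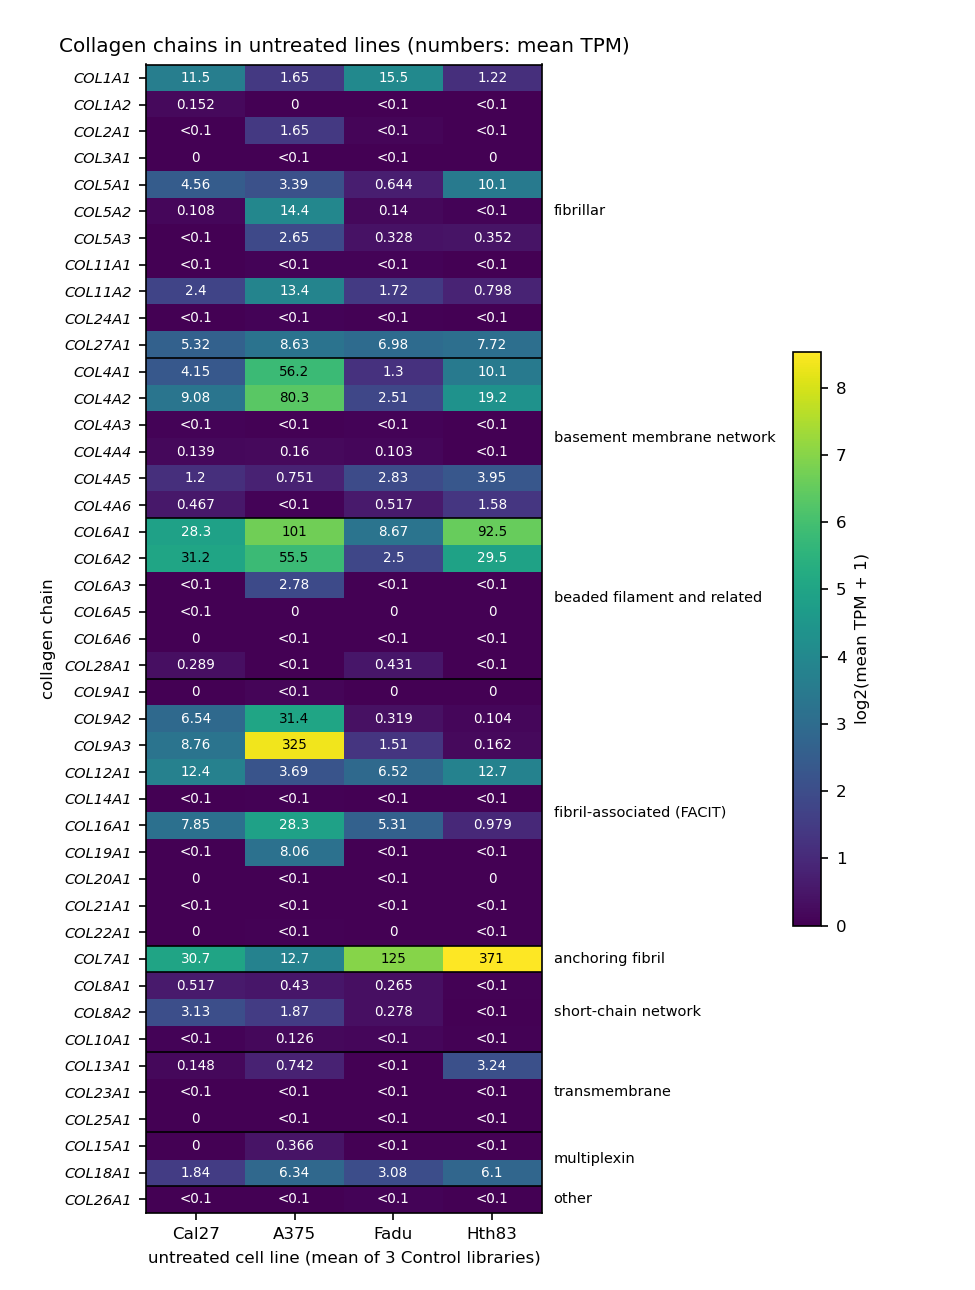
Mean TPM of each of the 43 collagen chains (rows, by family) in the 3 Control libraries of each line (columns), with colour giving log2(mean TPM + 1). COL7A1 is bright in Fadu and Hth83, whereas COL9A3, COL4A1, COL4A2 and COL6A1 are bright in A375, and 20 chains are under 1 TPM in all 4 lines.

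Over the 12 Control libraries, edgeR's quasi-likelihood F test found a difference among lines for 36 of the 37 chains that passed the low-count filter (97.3%), against 94.8% of the 21975 genes tested. COL10A1, a chain of hypertrophic cartilage, was the exception. Between pairs of lines, 32 of 37 chains (86.5%) differed for Cal27 against A375 and again for A375 against Fadu, beside 79.7% and 78.5% of all genes. A375 against Hth83 gave 31 (83.8%, against 74.9% of all genes) and Fadu against Hth83 30 (81.1%, against 72.8%). Cal27 differed from Hth83 in 28 chains (75.7%, against 72.2%) and from Fadu in 26 (70.3%, against 72.7%). COL7A1 was ordered Hth83, Fadu, Cal27, A375, and each neighbouring pair differed at an adjusted p of 1.94e-28 or smaller (edgeR, Benjamini-Hochberg).

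The untreated lines expressed many collagen types as incomplete sets of partner chains. Type I collagen is normally a trimer of COL1A1 and COL1A2. COL1A1 had 15.4, 15.4 and 15.8 TPM in Fadu and 12, 11.4 and 11.3 TPM in Cal27, while COL1A2 averaged 0.152 TPM in Cal27 and under 0.1 TPM in Fadu. In A375 COL1A2 had 0 counts in each of the 3 Control libraries, which allows up to 3 counts per library, beside 1.65 TPM of COL1A1. On TMM-scaled counts COL1A1 did not pass the test between Cal27 and Fadu (adjusted p = 0.848) or between A375 and Hth83 (adjusted p = 0.297).

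Type VI collagen is classically a trimer of COL6A1, COL6A2 and COL6A3. COL6A1 had 97.1, 104 and 103 TPM in A375 and 93.6, 94.7 and 89.3 TPM in Hth83, and COL6A2 had 55.4, 55.0 and 56.2 TPM in A375 and 29.2, 29.7 and 29.7 TPM in Hth83. COL6A3 was at 2.57, 2.82 and 2.93 TPM in A375, a TPM ratio of 0.027 to COL6A1, and its mean was under 0.1 TPM in the other lines. That ratio depends on the lengths that entered TPM. By counts the A375 Control libraries held 830, 578 and 561 of COL6A3 against 8078, 5466 and 5086 of COL6A1. Type IX collagen is a trimer of COL9A1, COL9A2 and COL9A3. COL9A2 had 29.8, 31.0 and 33.3 TPM in A375 and 6.46, 6.21 and 6.95 TPM in Cal27, whereas COL9A1 was under 0.1 TPM in A375 and had 0 counts in the 3 Control libraries of each of the other lines. The main fibrillar partner of type V, COL5A2, reached 13.9, 14.9 and 14.3 TPM in A375 and averaged under 0.2 TPM in the other lines, although COL5A1 was at 9.17, 10.6 and 10.5 TPM in Hth83 and 4.44, 4.31 and 4.92 TPM in Cal27. COL3A1, the type III chain of fibroblasts, had at most 5 counts in any of the 24 libraries.

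The type IV chains COL4A1 and COL4A2, the common pair of basement membranes, were present together in each line. COL4A2 averaged 80.3 TPM in A375, 19.2 TPM in Hth83, 9.08 TPM in Cal27 and 2.51 TPM in Fadu, and COL4A1 followed the same order with 56.2, 10.1, 4.15 and 1.30 TPM. COL12A1, a FACIT chain of dense connective tissue, stood at 12.7 TPM in Hth83 and 12.4 TPM in Cal27, and here the scales differ in order: on TMM-scaled counts it was higher in Cal27 than in Hth83 by 0.24 on the log2 scale (adjusted p = 8.37e-05, edgeR). COL27A1, a fibrillar chain of cartilage, varied least among the chains at 1 TPM in all 4 lines, with 8.63 TPM in A375, 7.72 TPM in Hth83, 6.98 TPM in Fadu and 5.32 TPM in Cal27. Neither A375 and Hth83 (adjusted p = 0.15) nor Fadu and Cal27 (adjusted p = 0.914) passed the test for COL27A1.

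Plasma treatment moved collagen chains in every line, mostly down in A375, mostly up in Fadu, and both ways in Cal27 and Hth83. Each line was tested by edgeR's quasi-likelihood test on TMM-scaled counts, with p-values adjusted by Benjamini-Hochberg over all genes of that line and a threshold of 0.05. The CAP response reached far beyond collagen, so the counts are read against all genes. In A375, 18 of 34 tested chains passed (52.9%, against 50.5% of all genes): 3 rose (8.82%, against 25.7%) and 15 fell (44.1%, against 24.8%). In Fadu, 14 of 32 passed (43.8%, against 53.3%): 12 rose (37.5%, against 26.3%) and 2 fell (6.25%, against 27%). Hth83 had 13 of 18 (72.2%, against 50.1%), with 8 that rose (44.4%, against 25.9%) and 5 that fell (27.8%, against 24.2%). Cal27 had 13 of 25 (52%, against 45.1%), with 4 that rose (16%, against 21.9%) and 9 that fell (36%, against 23.2%).

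The median log2 fold change over the tested chains, CAP over Control, was -0.21 in A375, 0.25 in Fadu, 0.18 in Hth83 and -0.17 in Cal27, while the median over all genes tested lay between -0.02 and 0.01. Tested chains are those with enough reads in either group: 41 passed the filter in some line, 16 in all 4, and COL3A1 and COL6A5 in none. CAP and Control libraries did not overlap in TMM-scaled CPM for 18 of 34 chains in A375 (52.9%, against 57.9% of all genes), 14 of 32 in Fadu (43.8%, against 58.6%), 11 of 18 in Hth83 (61.1%, against 57.2%) and 14 of 25 in Cal27 (56%, against 52.7%). Cal27 is the line in which the direction depends on scaling. Its 13 calls were 4 up and 9 down with TMM, its 12 calls 6 up and 6 down on library size only, and its 5 calls 4 up and 1 down with limma on log2(TPM + 1), a scale on which the median of all Cal27 genes lies at 0.20.

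**Figure D2:**
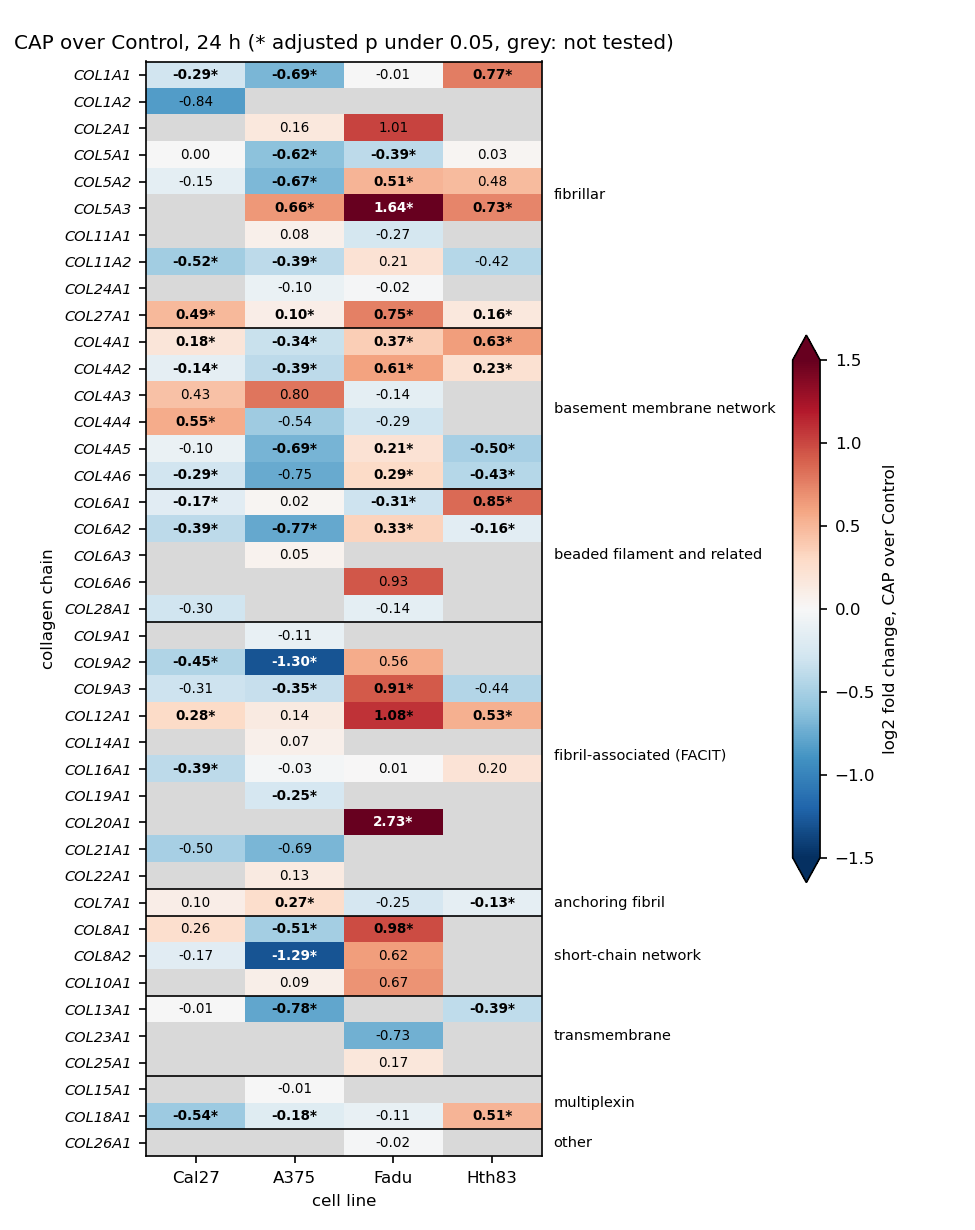
Log2 fold change, CAP over Control, of the 41 chains tested in at least 1 line (rows, by family) in each line (columns), with asterisks for an adjusted p under 0.05 and grey for chains not tested. A375 holds 15 marked falls, Fadu 12 marked rises, and the type IV and type VI rows change colour from line to line.

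Some chains rose in 1 line and fell in another, at about the share of all genes. These were 12 of the 41 chains tested in some line (29.3%, against 29% of all genes), or 12 of the 24 that passed in some line (50%, against 40.4%). COL27A1 rose in all 4 lines, COL4A1, COL5A3 and COL12A1 rose in 3, and COL6A2 fell in 3. In the fit of all 24 libraries as 8 group means, the line by treatment interaction passed for 23 of 41 chains (56.1%), a share close to the 56.9% of all 23642 genes. The smallest adjusted p-values belonged to COL4A2 (1.59e-19), COL6A1 (2.1e-19) and COL4A1 (1.15e-17). The treatment effect differed between A375 and Fadu, and between Fadu and Hth83, for 18 of 41 chains each (43.9%, against 36% and 35.7% of all genes). Cal27 against Fadu gave 16 (39%, against 38.4%), Cal27 against A375 13 (31.7%, against 35.5%), A375 against Hth83 12 (29.3%, against 27.3%) and Cal27 against Hth83 11 (26.8%, against 35%).

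In the basement membrane network, COL4A1 and COL4A2 are transcribed in opposite directions from neighbouring starts on chromosome 13 and share the stretch between them as a promoter. RefSeq (GRCh38.p14) gives 126 bases between the starts, at chr13:110307158-110307283, shown on the plus strand, the strand of COL4A2. It is set beside the 250 bases before the start of 3 chains on which the results turn, the chain with the largest rise in Fadu among chains over 10 CPM (COL12A1, chr6:75206054-75206303, minus strand), the one with the largest fall in A375 (COL9A2, chr1:40317287-40317536, minus strand) and the most abundant chain of Hth83 (COL7A1, chr3:48595330-48595579, minus strand). Capitals mark the motifs searched on both strands: the GC box GGGCGG, the CCAAT box CCAAT, the TATA box TATAAA and the AP-1 site TGANTCA, where N is any base.
COL4A1-COL4A2: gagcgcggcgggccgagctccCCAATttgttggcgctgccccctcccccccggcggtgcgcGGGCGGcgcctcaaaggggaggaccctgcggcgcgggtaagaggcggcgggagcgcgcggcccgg
COL12A1: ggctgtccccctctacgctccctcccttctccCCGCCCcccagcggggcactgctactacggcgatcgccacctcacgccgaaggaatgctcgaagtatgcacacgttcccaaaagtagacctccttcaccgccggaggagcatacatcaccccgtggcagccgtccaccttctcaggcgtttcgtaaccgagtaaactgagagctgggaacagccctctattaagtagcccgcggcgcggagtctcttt
COL9A2: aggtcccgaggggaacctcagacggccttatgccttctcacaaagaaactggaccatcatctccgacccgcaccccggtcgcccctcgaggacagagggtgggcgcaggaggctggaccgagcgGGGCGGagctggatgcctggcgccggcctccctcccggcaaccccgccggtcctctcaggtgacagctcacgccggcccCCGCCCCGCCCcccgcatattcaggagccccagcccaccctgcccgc
COL7A1: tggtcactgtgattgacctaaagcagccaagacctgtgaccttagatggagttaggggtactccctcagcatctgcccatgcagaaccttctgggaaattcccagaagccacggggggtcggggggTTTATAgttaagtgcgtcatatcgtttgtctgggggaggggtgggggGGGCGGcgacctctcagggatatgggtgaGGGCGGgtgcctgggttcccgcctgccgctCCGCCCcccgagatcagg
The stretch between COL4A1 and COL4A2 holds 1 GC box and 1 CCAAT box, the COL12A1 window 1 GC box, the COL9A2 window 3 GC boxes of which a pair overlaps, and the COL7A1 window 3 GC boxes and 1 TATA box. Of the 43 chains, 31 had a promoter in the RefSeq table. A GC box stood in the 250 bases before the start of 21 of them (67.7%), against 42.6% of all 35116 promoters. CCAAT stood in 10 (32.3%, against 32%), TATAAA in 6 (19.4%, against 10.7%) and the AP-1 motif in 1 (3.23%, against 6.57%). The shares of chains count genes, with any promoter entry of the gene, whereas the shares of all promoters count entries, so the units differ. A match describes letters in the window only.

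COL4A1 and COL4A2 moved together in 3 lines and apart in Cal27. In A375 COL4A1 had 456, 497 and 520 TMM-scaled CPM in CAP libraries against 612, 631 and 621 CPM in Control libraries, and COL4A2 had 861, 889 and 917 CPM against 1132, 1187 and 1178 CPM. No CAP library reached the lowest Control library for either chain, and both fell (log2 fold change -0.34 ± 0.04 for COL4A1, adjusted p = 7.75e-09, and -0.39 ± 0.03 for COL4A2, adjusted p = 2.24e-11; ± SE). In Hth83 COL4A1 had 177, 190 and 178 CPM in CAP libraries against 118, 121 and 113 CPM in Control libraries, and rose (log2 fold change 0.63 ± 0.05, adjusted p = 2.68e-12). COL4A2 also rose there, with 340, 350 and 337 CPM in CAP against 302, 299 and 275 CPM in Control libraries (log2 fold change 0.23 ± 0.04, adjusted p = 7.75e-05). Fadu had the larger rise in COL4A2, at 58.0, 56.5 and 65.1 CPM in CAP against 40.3, 37.5 and 40.0 CPM in Control libraries (log2 fold change 0.61 ± 0.06, adjusted p = 1.6e-16), beside 20.4, 18.4 and 21.5 CPM against 15.5, 15.7 and 15.3 CPM for COL4A1 (log2 fold change 0.37 ± 0.09, adjusted p = 0.000135). All these groups stood apart without overlap.

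In Cal27 COL4A1 had 65.7, 65.8 and 63.7 CPM in CAP against 60.1, 53.6 and 58.6 CPM in Control libraries and rose (log2 fold change 0.18 ± 0.05, adjusted p = 0.00602), while COL4A2 had 153, 146 and 150 CPM against 163, 165 and 167 CPM and fell (log2 fold change -0.14 ± 0.04, adjusted p = 0.00396). Both Cal27 calls were fragile. That of COL4A1 was lost without Control replicate 2 (adjusted p = 0.070) and with the trend by gene length removed (log2 fold change 0.03, adjusted p = 0.695). COL4A2 turned to 0.09 with limma on log2(TPM + 1) (adjusted p = 0.139) and was at -0.06 on library size only (adjusted p = 0.247).

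The balance of the pair shifted in opposite ways. The TPM ratio of COL4A1 over COL4A2, which does not depend on how libraries are scaled, was 0.683, 0.714 and 0.691 in CAP and 0.511, 0.530 and 0.540 in Control libraries of Hth83, and 0.564, 0.592 and 0.557 in CAP and 0.484, 0.427 and 0.461 in Control libraries of Cal27. In both lines all CAP ratios lay above all Control ratios. In Fadu they lay below, with 0.461, 0.426 and 0.433 in CAP against 0.504, 0.548 and 0.503 in Control libraries. A375 ratios overlapped, at 0.695, 0.733 and 0.744 in CAP and 0.709, 0.697 and 0.692 in Control libraries. With 3 libraries against 3 an exact permutation test of such a ratio cannot go below 0.10, so none is given.

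The X-linked chains COL4A5 and COL4A6, which pair in the basement membranes of epithelia, fell together in Hth83. COL4A5 had 51.6, 56.7 and 50.2 CPM in CAP against 72.9, 73.7 and 77.0 CPM in Control libraries of Hth83 (log2 fold change -0.50 ± 0.06, adjusted p = 2.63e-08), and COL4A6 had 26.0, 24.2 and 22.8 CPM against 33.3, 32.8 and 32.3 CPM (log2 fold change -0.43 ± 0.08, adjusted p = 1.62e-05). The groups did not overlap, and the ratio of the pair stayed within its spread, at 2.40 ± 0.196 in CAP and 2.50 ± 0.113 in Control libraries (SD, n = 3 each). In Hth83 the 4 type IV chains tested therefore passed as 2 rises (COL4A1 and COL4A2) and 2 falls, beside 25.9% of all genes that rose and 24.2% that fell there. In Fadu both X-linked chains rose slightly, COL4A5 with 65.7, 62.7 and 63.0 CPM in CAP against 52.8, 53.8 and 58.5 CPM in Control libraries (log2 fold change 0.21 ± 0.05, adjusted p = 0.000233) and COL4A6 with 13.8, 11.9 and 14.8 CPM in CAP against 10.9, 10.3 and 12 CPM in overlapping Control libraries (log2 fold change 0.29 ± 0.10, adjusted p = 0.0139). COL4A5 fell in A375, at 8.67, 7.36 and 9.17 CPM in CAP against 14.5, 14.4 and 11.8 CPM in Control libraries (log2 fold change -0.69 ± 0.11, adjusted p = 2.8e-06). COL4A6 fell in Cal27, with 10.04, 8.65 and 9.86 CPM in CAP against 9.73, 11.6 and 13.5 CPM in Control libraries, groups that overlapped (log2 fold change -0.29 ± 0.12, adjusted p = 0.0426). That call was lost without Control replicate 2 or 3 (adjusted p = 0.0785 and 0.309) and without CAP replicate 2 or 3 (0.181 and 0.0608), and the Fadu call of COL4A6 without Control replicate 2 (0.0841) or CAP replicate 3 (0.116). COL4A3 and COL4A4, the chains of the kidney filter, stayed under 1 TPM, and COL4A4 in Cal27 was the only call among them (log2 fold change 0.55 ± 0.22, adjusted p = 0.0363), lost without Control replicate 2 or 3 or CAP replicate 1 or 2 (adjusted p = 0.0938, 0.0818, 0.166 and 0.097).

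COL6A1 and COL6A2, which make the beaded filament with COL6A3, responded separately. In Hth83 COL6A1 had 288, 277 and 290 CPM in CAP against 161, 159 and 153 CPM in Control libraries. The groups were far apart, and the rise was the largest among Hth83 chains (log2 fold change 0.85 ± 0.04, adjusted p = 6.24e-16). COL6A2 had 67.3, 71.6 and 62.2 CPM in CAP against 75, 74.4 and 75.9 CPM in Control libraries of Hth83, a small fall (log2 fold change -0.16 ± 0.06, adjusted p = 0.0179) that was lost without Control replicate 3 (adjusted p = 0.0518) or CAP replicate 3 (0.091). In A375 COL6A2 was the chain that fell, with 74.5, 83.4 and 78.6 CPM in CAP against 135, 132 and 138 CPM in Control libraries (log2 fold change -0.77 ± 0.04, adjusted p = 5.48e-15), whereas COL6A1 had 178, 164 and 162 CPM against 159, 167 and 169 CPM, with overlapping groups (log2 fold change 0.02 ± 0.04, adjusted p = 0.642). COL6A3 in A375 did not pass either (log2 fold change 0.05 ± 0.08, adjusted p = 0.618).

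The COL6A1 over COL6A2 TPM ratio was therefore higher in CAP in both lines. It was 6.37, 5.78 and 6.95 in CAP against 3.21, 3.19 and 3.01 in Control libraries of Hth83, and 3.56, 2.93 and 3.07 in CAP against 1.75, 1.88 and 1.84 in Control libraries of A375. Cal27 had a smaller gap the same way, at 1.07, 1.01 and 1.08 in CAP against 0.957, 0.816 and 0.947 in Control libraries. Fadu went the other way, at 2.55, 1.87 and 2.31 in CAP against 3.22, 3.73 and 3.48 in Control libraries. In none of the lines did the ratios of the groups overlap. In Fadu COL6A1 had 14, 11.2 and 11.7 CPM in CAP against 15.3, 15.1 and 15.2 CPM in Control libraries and fell (log2 fold change -0.31 ± 0.10, adjusted p = 0.00486, or 0.0509 without CAP replicate 2). COL6A2 was under 10 CPM in Fadu and rose by 0.33 ± 0.13 (adjusted p = 0.0209), a call lost without Control replicate 2 (0.0978) or CAP replicate 2 (0.118).

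COL6A2 also fell in Cal27, with 74.5, 73.8 and 69.1 CPM in CAP against 95, 98.8 and 90.9 CPM in Control libraries (log2 fold change -0.39 ± 0.05, adjusted p = 5.92e-08). COL6A1 had 53.5, 50.05 and 50.2 CPM in CAP against 61.0, 54.0 and 57.7 CPM in Control libraries of Cal27 (log2 fold change -0.17 ± 0.06, adjusted p = 0.0164). The COL6A1 call was lost without Control replicate 1 (adjusted p = 0.14), CAP replicate 2 (0.0716) or CAP replicate 3 (0.0675), and its sign turned on TPM, to 0.07 with limma on log2(TPM + 1).

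**Figure D3:**
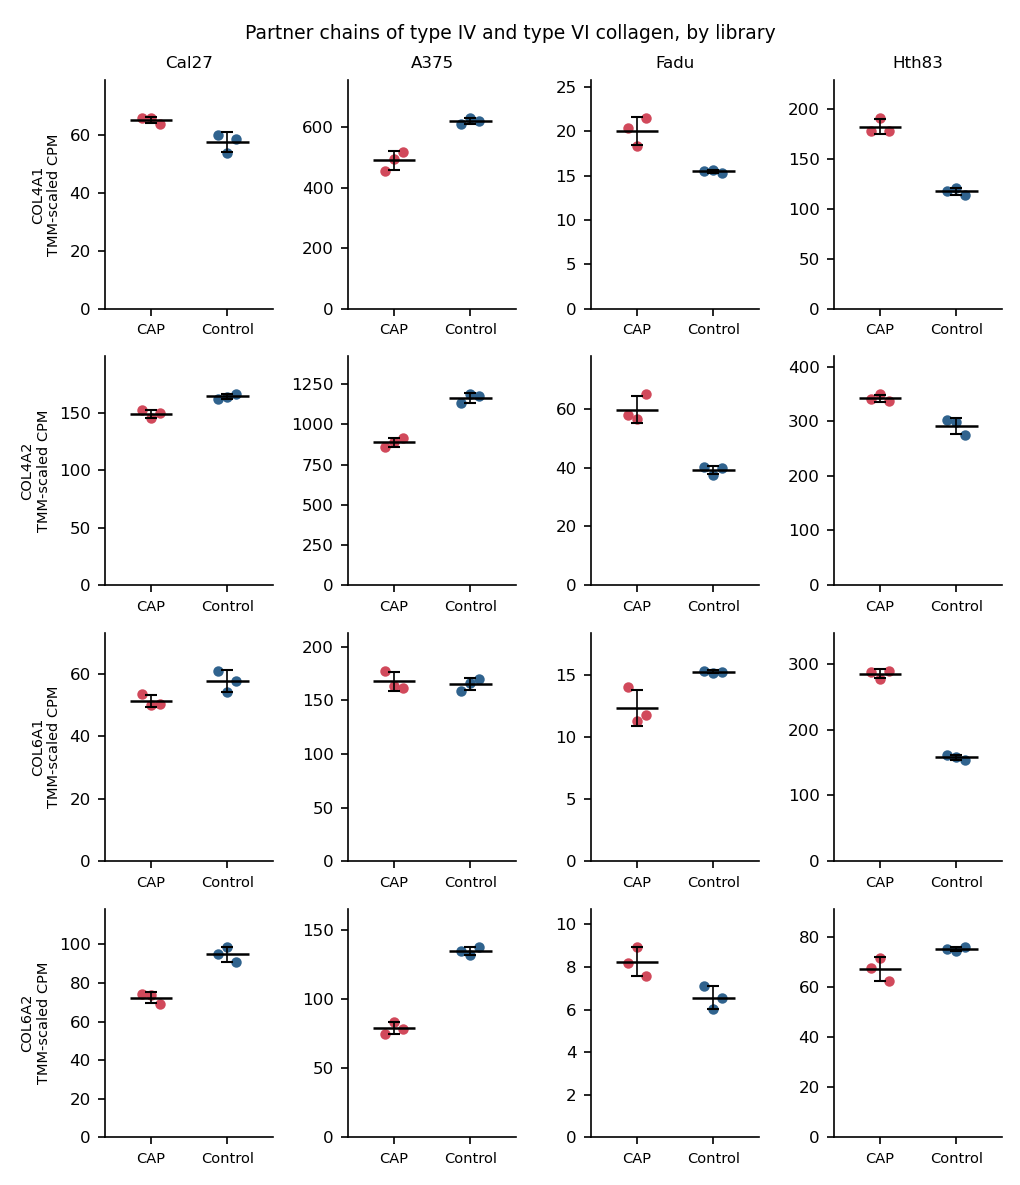
TMM-scaled CPM of COL4A1, COL4A2, COL6A1 and COL6A2 (rows) in each library of the 4 lines (columns), CAP left and Control right, with a line for the mean, bars for the SD (n = 3 each) and axes that start at 0. COL6A1 stands at 277 to 290 CPM in the CAP libraries of Hth83, above its Control libraries at 153 to 161 CPM, while COL6A2 there is slightly lower in CAP.

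Among fibrillar chains, COL27A1 was the chain that rose in all 4 lines. It had 139, 131 and 147 CPM in CAP against 80.9, 81.4 and 85.6 CPM in Control libraries of Fadu (log2 fold change 0.75 ± 0.04, adjusted p = 1.21e-28). Cal27 had 98.6, 109 and 100 CPM in CAP against 71.6, 69.1 and 78.3 CPM in Control libraries (log2 fold change 0.49 ± 0.05, adjusted p = 1.89e-09). Both rises left a gap between the groups. Hth83 had 104, 102 and 91.6 CPM in CAP against 92, 90.7 and 83.7 CPM in Control libraries (log2 fold change 0.16 ± 0.06, adjusted p = 0.018), and A375 had 102, 105 and 98.2 CPM in CAP against 92.4, 95 and 96.9 CPM in Control libraries (0.10 ± 0.04, adjusted p = 0.0451). The Hth83 groups overlapped, and its call was lost without Control replicate 3 (adjusted p = 0.123), CAP replicate 1 (0.122) or CAP replicate 2 (0.0634). The A375 call was lost without Control replicate 1 (0.166), Control replicate 2 (0.0877) or CAP replicate 2 (0.148), and on library size only (log2 fold change 0.03, adjusted p = 0.553).

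The type V chains, which set the diameter of type I fibrils, went in different directions within A375. COL5A2 had 112, 125 and 127 CPM in CAP against 188, 200 and 196 CPM in Control libraries (log2 fold change -0.67 ± 0.04, adjusted p = 5.35e-14), and COL5A1 had 30.1, 32.2 and 31.7 CPM against 46.1, 50.4 and 47.8 CPM (log2 fold change -0.62 ± 0.06, adjusted p = 3.74e-10). Their TPM ratio stayed close, at 0.246 ± 0.009 in CAP and 0.236 ± 0.004 in Control libraries (SD, n = 3 each). COL5A3, the third type V chain, rose, with 17.3, 13.1 and 14.3 CPM in CAP against 8.90, 9.02 and 10.5 CPM in Control libraries of A375 (log2 fold change 0.66 ± 0.11, adjusted p = 5.04e-06). COL5A3 also rose in Fadu and in Hth83, from low levels: 5.09, 2.97 and 3.75 CPM in CAP against 1.05, 1.24 and 1.48 CPM in Control libraries of Fadu (log2 fold change 1.64 ± 0.23, adjusted p = 8.16e-10), and 2.41, 1.74 and 2.46 CPM against 1.78, 1.27 and 0.892 CPM in Hth83 (log2 fold change 0.73 ± 0.27, adjusted p = 0.0228). The Hth83 groups overlapped, and leaving out Control replicate 2 or 3 or CAP replicate 1 or 3 ended that call (adjusted p = 0.0699, 0.121, 0.0873 and 0.0792). An antisense gene shares 4% of the exonic bases of COL5A3 and no source used here gives the use of strand, so reads of the pair cannot be told apart there. In Hth83 COL5A1, the most abundant fibrillar chain of that line, did not pass (log2 fold change 0.03 ± 0.05, adjusted p = 0.707), nor did it in Cal27 (adjusted p = 1).

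COL1A1, the main chain of type I collagen, had 14.7, 14.3 and 14.3 CPM in CAP against 18.3, 17.6 and 17.1 CPM in Control libraries of Cal27 and fell (log2 fold change -0.29 ± 0.09, adjusted p = 0.0058). With the trends by gene length and GC content removed the Cal27 value was -0.09 (adjusted p = 0.437). In Fadu, where COL1A1 was the second chain by TPM, it did not pass (log2 fold change -0.01 ± 0.08, adjusted p = 0.921). COL11A2, a cartilage fibril chain, fell in A375, with 21.3, 21.5 and 21.0 CPM in CAP against 26.8, 28.1 and 28.9 CPM in Control libraries (log2 fold change -0.39 ± 0.07, adjusted p = 2.17e-05). At under 10 CPM, COL1A1 rose in Hth83 (log2 fold change 0.77 ± 0.23, adjusted p = 0.00571) and fell in A375 (-0.69 ± 0.24, adjusted p = 0.0193, or 0.0593 without Control replicate 3 and 0.112 without CAP replicate 3). COL11A2 fell in Cal27 (-0.52 ± 0.16, adjusted p = 0.00749, or 0.074 without CAP replicate 3). In Fadu COL5A2 rose by 0.51 ± 0.22 (adjusted p = 0.0396) and COL5A1 fell (-0.39 ± 0.13, adjusted p = 0.00857). Each of these Fadu calls was lost in some refits that left out 1 library, with adjusted p-values of 0.0622, 0.217, 0.0835 and 0.22 for COL5A2 (Control replicates 1 and 3, CAP replicates 2 and 3) and 0.147 and 0.0864 for COL5A1 (Control replicate 3, CAP replicate 1).

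Fibril-associated chains gave the largest changes in either direction among chains over 10 CPM. COL12A1 had 119, 130 and 131 CPM in CAP against 60.6, 57.9 and 61.4 CPM in Control libraries of Fadu. The lowest CAP library stood far above the highest Control library, and the log2 fold change was 1.08 ± 0.05 (adjusted p = 2.09e-38). It rose also in Hth83, with 155, 165 and 172 CPM in CAP against 108, 121 and 110 CPM in Control libraries (log2 fold change 0.53 ± 0.05, adjusted p = 4.25e-10), and in Cal27, with 171, 154 and 156 CPM against 127, 124 and 145 CPM (0.28 ± 0.05, adjusted p = 7.17e-05). In A375 its groups overlapped (log2 fold change 0.14 ± 0.07, adjusted p = 0.083). The effect in Fadu exceeded that in Hth83 by 0.56 ± 0.08 on the log2 scale (adjusted p = 9.83e-08, joint edgeR fit).

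Of the type IX chains, COL9A2 and COL9A3 fell in A375, the line with the highest TPM of both, and COL9A1, at under 1 CPM, did not pass (log2 fold change -0.11 ± 0.44, adjusted p = 0.858). COL9A2 had 14.9, 16.0 and 15.4 CPM in CAP against 36.3, 37.1 and 40.7 CPM in Control libraries (log2 fold change -1.30 ± 0.07, adjusted p = 2.2e-15), the largest fall among A375 chains. COL9A3 had 428, 447 and 460 CPM in CAP against 552, 558 and 587 CPM in Control libraries of A375 (log2 fold change -0.35 ± 0.04, adjusted p = 1.12e-09). No CAP library reached a Control library for either chain. At under 10 CPM, COL9A3 rose in Fadu, with 4.35, 6.06 and 5.66 CPM in CAP against 3.18, 2.73 and 2.63 CPM in Control libraries (log2 fold change 0.91 ± 0.17, adjusted p = 2.73e-06). In Cal27 COL9A2 fell (log2 fold change -0.45 ± 0.12, adjusted p = 0.00167), and COL9A3 did not pass (-0.31 ± 0.13, adjusted p = 0.067). COL16A1, a FACIT chain of skin and smooth muscle, fell in Cal27, with 26.8, 29.9 and 25.1 CPM in CAP against 36.2, 36.2 and 34.8 CPM in Control libraries (log2 fold change -0.39 ± 0.07, adjusted p = 2.41e-05), and did not pass in A375 (-0.03 ± 0.05, adjusted p = 0.683), the line where it was most abundant. COL19A1, which was near 0 in the other lines, fell in A375 with 166, 164 and 162 CPM in CAP against 198, 193 and 193 CPM in Control libraries (log2 fold change -0.25 ± 0.04, adjusted p = 7.47e-07). COL20A1 passed in Fadu on 20, 12 and 10 counts in CAP against 0, 2 and 4 counts in Control libraries (log2 fold change 2.73 ± 0.74, adjusted p = 0.00109).

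COL7A1, the most abundant chain of Fadu and Hth83, differed little between groups. It had 806, 803 and 717 CPM in CAP against 813, 834 and 903 CPM in Control libraries of Hth83 (log2 fold change -0.13 ± 0.05, adjusted p = 0.0224), a fall that was lost without Control replicate 3 (0.169) or CAP replicate 3 (0.118). Fadu had 243, 223 and 276 CPM in CAP against 292, 285 and 306 CPM in Control libraries, and although the groups stood apart the test did not pass (log2 fold change -0.25 ± 0.09, adjusted p = 0.062). A375 rose, with 38.6, 29.7 and 32.0 CPM in CAP against 27.4, 25.6 and 30.3 CPM in overlapping Control libraries (log2 fold change 0.27 ± 0.08, adjusted p = 0.00721, or 0.0671 without CAP replicate 1). Cal27 did not pass (log2 fold change 0.10 ± 0.05, adjusted p = 0.099). In TPM the Cal27 groups stood apart, at 37.4 to 39.5 TPM in CAP against 29.1 to 32.0 TPM in Control libraries. That is the scale on which the median of all Cal27 genes was raised.

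COL18A1, the multiplexin that carries endostatin, split the lines. It rose in Hth83, with 68.5, 69.3 and 70.2 CPM in CAP against 49.9, 48.6 and 47.1 CPM in Control libraries (log2 fold change 0.51 ± 0.06, adjusted p = 7.28e-09). In Cal27 it fell, with 12.1, 12.1 and 12 CPM in CAP against 16.8, 17.7 and 18.0 CPM in Control libraries (log2 fold change -0.54 ± 0.09, adjusted p = 7.59e-06). The effects differed by -1.05 ± 0.09 on the log2 scale, Cal27 minus Hth83 (adjusted p = 2.39e-13, joint edgeR fit). The A375 fall was small, with 44.4, 42.7 and 41 CPM in CAP against 49.3, 47.9 and 47.1 CPM in Control libraries (log2 fold change -0.18 ± 0.05, adjusted p = 0.00815), and was lost without Control replicate 1 (0.0504) or CAP replicate 3 (0.055), and Fadu did not pass (-0.11 ± 0.08, adjusted p = 0.247). SLC19A1 on the opposite strand shares 16.4% of the exonic bases of COL18A1, so part of these counts cannot be told apart from that gene.

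COL13A1, a transmembrane collagen of cell adhesion sites, fell in Hth83, with 27.5, 33.2 and 28 CPM in CAP against 40.5, 37.0 and 38.2 CPM in Control libraries (log2 fold change -0.39 ± 0.08, adjusted p = 9.39e-05), and at under 10 CPM in A375 (-0.78 ± 0.13, adjusted p = 9.31e-06). The short-chain network collagens COL8A1 and COL8A2, known from the membrane under the corneal endothelium, stayed under 10 CPM. COL8A2 fell in A375, with 1.71, 1.70 and 1.39 CPM in CAP against 3.06, 4.33 and 4.40 CPM in Control libraries (log2 fold change -1.29 ± 0.20, adjusted p = 2.85e-06). Of the pair, COL8A1 rose in Fadu (0.98 ± 0.17, adjusted p = 7.89e-07) and fell in A375 (-0.51 ± 0.16, adjusted p = 0.00896, or 0.0618 without Control replicate 3). The other 17 chains tested passed in no line, and of these COL6A3 in A375 was the only one that reached 10 CPM.

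**Figure D4:**
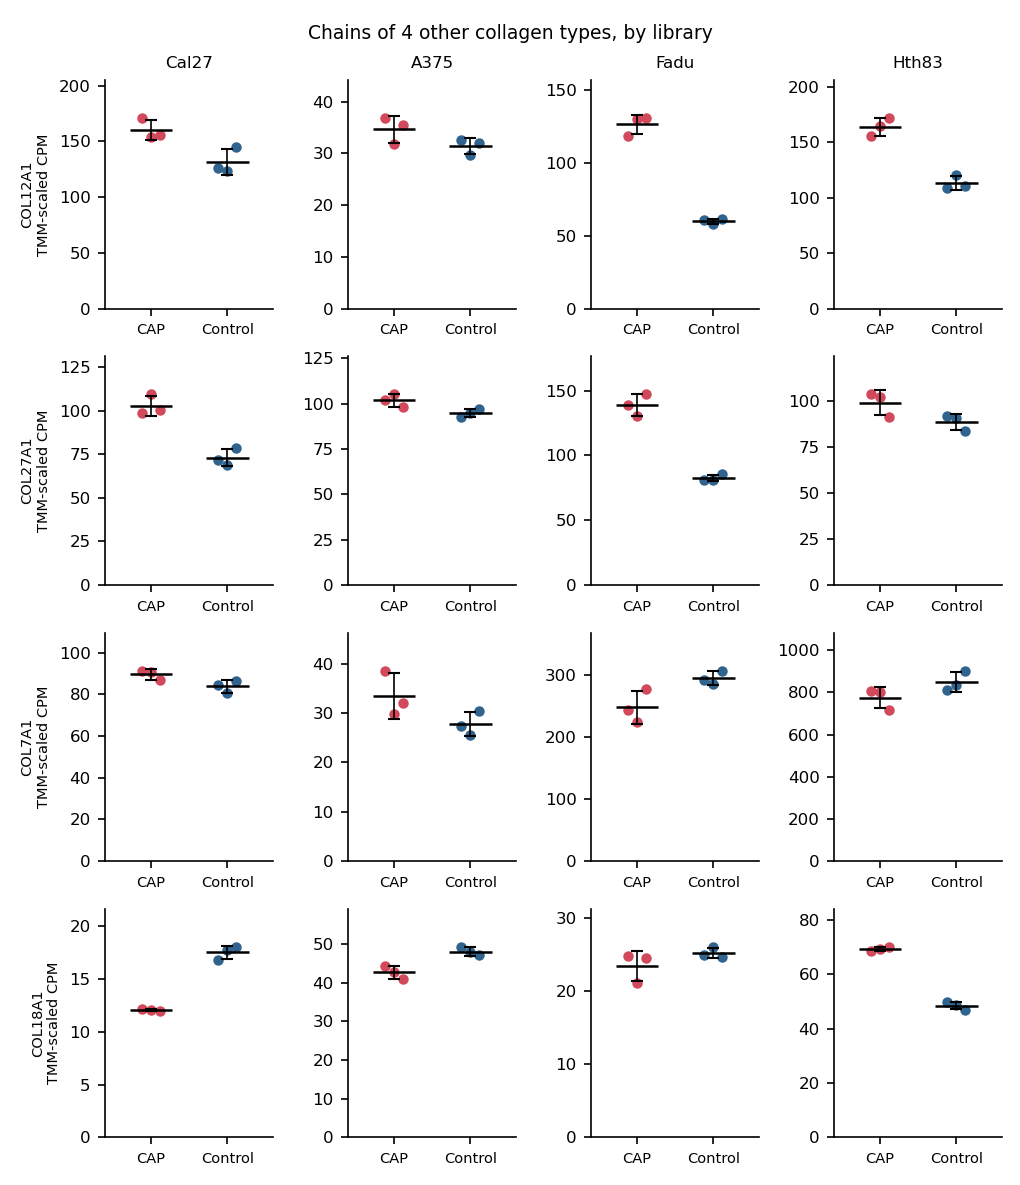
TMM-scaled CPM of COL12A1, COL27A1, COL7A1 and COL18A1 (rows) in each library of the 4 lines (columns), CAP left and Control right, with a line for the mean, bars for the SD (n = 3 each) and axes that start at 0. COL12A1 and COL27A1 are higher in CAP in Fadu, Cal27 and, for COL12A1, Hth83, while COL18A1 is higher in CAP in Hth83 and lower in Cal27.

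Summed over the 43 chains, collagen TPM was 574 ± 13.8 in CAP and 762 ± 19.3 in Control libraries of A375 (SD, n = 3 each). In TPM the FACIT chains, mainly COL9A3, gave most of the gap, with 288 ± 11.7 TPM in CAP and 396 ± 12.3 TPM in Control libraries. In TMM-scaled CPM, however, COL4A2 lost more than COL9A3 in A375. The FACIT share of the gap therefore depends on the gene lengths that entered TPM. Hth83 had 656 ± 23.3 TPM in CAP and 572 ± 18.0 TPM in Control libraries. There the type VII chain held 354 ± 23.1 TPM in CAP and 371 ± 20.2 TPM in Control libraries, so the higher sum lay in the other families. Fadu had 185 ± 13.1 TPM in CAP and 187 ± 5.77 TPM in Control libraries, with overlapping groups. Cal27 had 186 ± 3.66 TPM in CAP and 171 ± 3.59 TPM in Control libraries, on the scale where the median of all its genes was raised. In A375, Hth83 and Cal27 the sums of the groups did not overlap.

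**Figure D5:**
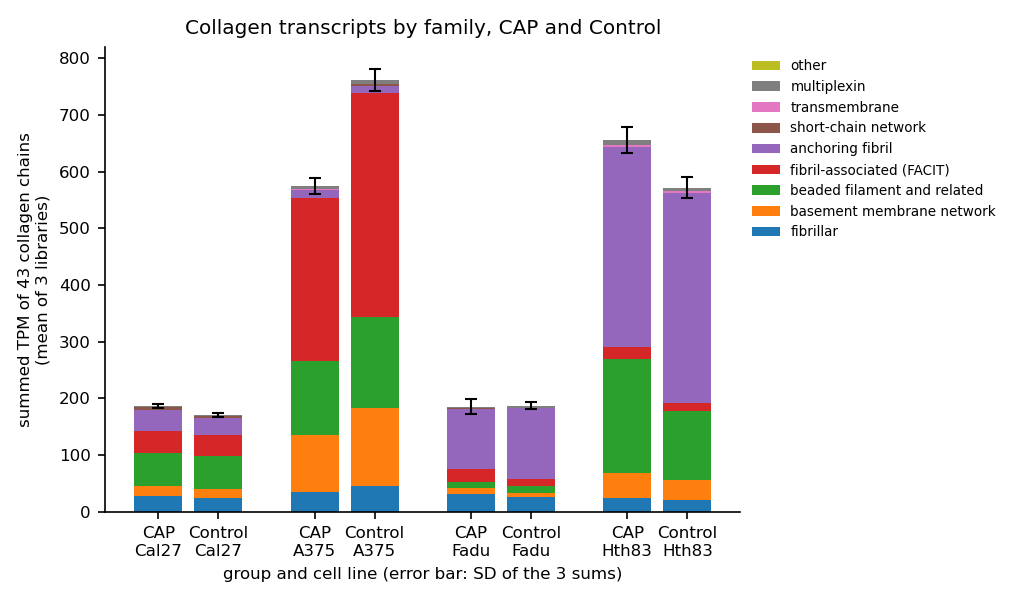
Summed TPM of the 43 chains, stacked by collagen family, in CAP (left bar of each pair) and Control libraries of each line, as means of 3 libraries with error bars for the SD of the sums. The A375 stack is lower in CAP (574 TPM) than in Control (762 TPM), mainly in its FACIT segment, and the Fadu and Hth83 stacks are mostly anchoring fibril. Segment sizes depend on the gene lengths that entered TPM.

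The machinery that makes, processes and binds collagen was followed through 49 genes in 3 lists. In A375, 34 of 44 tested genes passed (77.3%, against 50.5% of all genes), 9 up (20.5%, against 25.7%) and 25 down (56.8%, against 24.8%). Hth83 had 30 of 40 (75%, against 50.1%), 14 up (35%, against 25.9%) and 16 down (40%, against 24.2%). Fadu had 29 of 45 (64.4%, against 53.3%), 17 up (37.8%, against 26.3%) and 12 down (26.7%, against 27%). Cal27 had 21 of 46 (45.7%, against 45.1%), 10 up (21.7%, against 21.9%) and 11 down (23.9%, against 23.2%). With limma on log2(TPM + 1) Cal27 had 15 up and 3 down, on a scale where 83.4% of all its called genes were higher. The median log2 fold change was -0.22 in A375, -0.12 in Hth83, 0.17 in Fadu and 0.01 in Cal27, so in Hth83 it had the opposite sign to that of the collagen chains.

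For synthesis and folding, LARP6, which binds the type I collagen mRNAs, had 24.1, 25.2 and 21.5 CPM in CAP against 81.0, 75 and 91.4 CPM in Control libraries of Hth83 (log2 fold change -1.80 ± 0.07, adjusted p = 8.89e-18). It fell also in A375 (-0.95 ± 0.08, adjusted p = 1.49e-11) and Cal27 (-0.60 ± 0.06, adjusted p = 1.65e-09) and rose in Fadu (adjusted p = 0.00833). The lysyl hydroxylases split in Fadu: PLOD2 fell, with 82.6, 81.8 and 78.4 CPM in CAP against 156, 154 and 151 CPM in Control libraries (log2 fold change -0.93 ± 0.04, adjusted p = 1.65e-36), and PLOD3 rose, with 114, 109 and 119 CPM against 58.7, 56.8 and 54.0 CPM (1.01 ± 0.05, adjusted p = 1.59e-35). PLOD2 and the prolyl hydroxylase subunit P4HA1 rose in Cal27 (0.32 ± 0.04, adjusted p = 5.26e-09, and 0.41 ± 0.04, adjusted p = 1.87e-09), and with the trends by gene length and GC content removed PLOD2 was at 0.07 there (adjusted p = 0.0724). P4HB, its partner subunit, and the prolyl isomerase PPIB rose in A375 (0.37 ± 0.04, adjusted p = 3.6e-10, and 0.37 ± 0.04, adjusted p = 1.92e-08).

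Among processing and crosslinking genes, the lysyl oxidase LOXL4 had 6.46, 6.03 and 5.72 CPM in CAP against 33.1, 31.8 and 33.2 CPM in Control libraries of Fadu (log2 fold change -2.43 ± 0.09, adjusted p = 5.82e-42), and fell in A375 (-0.51 ± 0.04, adjusted p = 1.7e-12) together with LOXL2 (-0.54 ± 0.04, adjusted p = 3.67e-12). Of the 13 genes of that list tested in A375, 9 fell (69.2%, against 24.8% of all genes) and 1 rose (7.69%, against 25.7%). SPARC, a collagen-binding protein, fell in Cal27, with 95.1, 88.0 and 88.5 CPM in CAP against 137, 138 and 142 CPM in Control libraries (-0.62 ± 0.04, adjusted p = 3.06e-13), and rose in Hth83 (0.23 ± 0.04, adjusted p = 3.82e-05). Of the receptors, the integrin chain ITGA2 rose in Fadu, with 190, 207 and 195 CPM in CAP against 66.1, 73.5 and 74.0 CPM in Control libraries (1.47 ± 0.04, adjusted p = 2.56e-47), and in Cal27 (0.42 ± 0.04, adjusted p = 1.46e-10) and A375 (0.39 ± 0.04, adjusted p = 4.15e-10). The collagen receptor kinase DDR1 fell in Fadu (-0.51 ± 0.03, adjusted p = 1.07e-24), Hth83 (-0.40 ± 0.04, adjusted p = 5.13e-09) and Cal27 (-0.24 ± 0.03, adjusted p = 2.22e-07), where limma on log2(TPM + 1) put it at -0.01 (adjusted p = 0.796). DDR2, the related kinase of mesenchymal cells, fell in A375, with 165, 175 and 189 CPM in CAP against 338, 311 and 304 CPM in Control libraries (-0.85 ± 0.04, adjusted p = 1.52e-14), where 7 of 9 receptor genes tested fell (77.8%, against 24.8% of all genes).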

How the data were processed

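Total RNA (Trizol extraction) went into libraries of a SMARTER mRNA-Seq kit, per the labels' protocols. HISAT2 and GRCh38 are named in the submitters' processing notes. Which tool counted the reads, with which annotation, whether strand was used and which gene lengths entered TPM is given in no source used here. The authors deposited raw counts and TPM, in 2 tables for each line. The deposited TPM equal the deposited counts over 1 length per gene, rescaled per library, within a relative departure of 4.07e-13. Of the 61533 identifiers, 61369 were named from a symbol table, 149 from GENCODE 29 and 15 from neither. Within groups, libraries differed beyond counting error, with chi-square over its degrees of freedom between 3.31 and 6.73, so none was merged.

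Counts were tested with edgeR 4.0.16 in R 4.3.3, 3 CAP against 3 Control libraries in each line, after filterByExpr (minimum count 10, minimum total 15) and TMM scaling, with robust dispersion and Benjamini-Hochberg adjustment at 0.05 over all genes tested. The 24 libraries were also fitted as 8 groups for the line by treatment interaction, and the 12 Control libraries for differences among lines. The fold changes are CAP over Control, and CPM in the text are relative to the TMM-scaled library size. These steps were checked on simulated data with known changes. The planted changes were 2-fold and lay in genes above a minimum level, so smaller changes and chains with few counts were not covered.

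The chains, families, pathway lists and markers were chosen with earlier results of these data known. Chains are given by library where they passed and reached 10 CPM in either group of a line, or had 10 TPM in an untreated line. Lower chains named here were picked after their values were seen. Pathway genes are, per list and line, the 2 of smallest adjusted p in each direction with at least 10 CPM, and not all are printed.

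Alternatives were RLE scaling, scaling by library size only, a stricter low-count filter (CPM over 1 in 3 libraries) or none, DESeq2 1.42.0, no robust dispersion, the replicate number as a block, the joint fit, limma 3.58.1 on log2(TPM + 1) with and without a filter (TPM of 1) and on log2(TPM + 0.1), a trend with gene length removed, a minimum of 1.2-fold (2-fold among untreated lines) and each library left out. Removing trends with both length and GC content was added after seeing the data. Promoter letters come from a RefSeq table of GRCh38.p14, which held 31 of the 43 chains.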

Additional observations from a re-analysis of the deposited data

Results flagged for a closer look

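For 23 of 41 chains (56.1%, against 56.9% of all 23642 genes) the effect of CAP differed between the 4 lines, by the line by treatment interaction of the joint edgeR fit with Benjamini-Hochberg adjustment over all genes. The adjusted p-values were 1.59e-19 for COL4A2, 2.1e-19 for COL6A1, 1.15e-17 for COL4A1, 1.33e-13 for COL6A2, 1.55e-13 for COL12A1 and 2.96e-13 for COL18A1. They were 1.48e-11 for COL27A1, 2.89e-11 for COL4A5, 6e-07 for COL9A2, 1.26e-06 for COL1A1, 2.19e-06 for COL5A1 and 5.61e-06 for COL8A1. COL4A6 had 4.21e-05, COL8A2 0.000225, COL5A2 0.000238, COL9A3 0.000339, COL13A1 0.000402 and COL16A1 0.00216. The weakest were COL7A1 at 0.00509, COL4A4 at 0.00751, COL11A2 at 0.00767, COL5A3 at 0.0221 and COL2A1 at 0.0304. COL2A1 passed in neither of the 2 lines where it was tested. Hth83 was not among them: COL2A1 had 2, 10 and 6 counts in CAP and 1, 0 and 0 counts in Control libraries there. The effect on COL2A1 differed between A375 and Hth83 (difference of log2 fold changes -3.64, adjusted p = 0.0114, joint edgeR fit) and in no other pair of lines.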

How the results depend on the processing

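Scaling bears on Cal27 most: the median log2 fold change of all its genes was 0.00 with TMM, 0.08 on library size only and 0.20 on log2(TPM + 1), and the share of higher calls among all called genes was 48.5%, 62.4% and 83.4%. Library size only gave 61.8% in Fadu against 49.3% with TMM, and 39.8% in A375 against 50.9%. With limma on log2(TPM + 1), without a filter and on log2(TPM + 0.1), the chains called in Cal27 were 5 of 16, 4 of 38 and 5 of 16 (13 of 25 in edgeR). They were 4 of 13, 5 of 42 and 4 of 13 in Fadu (14 of 32) and 7 of 14, 7 of 41 and 7 of 14 in Hth83 (13 of 18). Over all genes, limma on log2(TPM + 1) called 6660 of 16920 in Cal27, 7423 of 19041 in Fadu and 6571 of 17382 in Hth83. Without a filter it called 11 of 41 chains in A375 (18 of 34 in edgeR), beside 5772 of 37577 genes. Among untreated lines limma on log2(TPM + 1) called 23 of the 23 chains it tested, beside 19255 of 22816 genes. There edgeR called 36 of 37 chains, beside 94.8% of all genes. Under limma COL4A2 in Cal27 turned to 0.09, with values of 0.0865, 0.0865 and 0.0947, and COL6A1 in Cal27 to 0.0671, 0.0671 and 0.0693. COL6A1 also turned, to 0.0441, with length and GC trends removed, an alternative chosen after seeing the data. The TPM filter and the scale differ at once in limma, and the cause of the turns was not tested.

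With 1 library left out, the chains called ranged from 10 to 13 of 25 or 26 tested in Cal27 and 16 to 19 of 34 in A375. They ranged from 12 to 13 of 32 or 33 in Fadu, 9 to 13 of 18 or 19 in Hth83 and 22 to 24 of 41 for the interaction. Among untreated lines the range was 37 to 38 of 38 or 39, where more chains passed the filter. The shares of all genes in these refits are not given here, so the ranges describe the chains only. Deviations of same-numbered libraries had correlations of -0.0226 to 0.0355, and those of differently numbered libraries -0.0564 to 0.052. With 3 libraries per group this cannot settle whether the numbers pair them. With the replicate block, 13 of 25 chains were called in Cal27 (7704 of 17371 genes) and 17 of 34 in A375 (9946 of 19604). In Fadu 15 of 32 were called (10183 of 19152) and in Hth83 13 of 18 (8652 of 17279). The interaction passed for 23 of 41 chains, beside 13151 of 23642 genes. Of 1135 gene values under alternatives, 977 kept direction and call, 151 lost the call and 7 turned. For 22 of the 58 gene calls every alternative kept the call. Of 800 values for pathway genes 24 lost the call and 0 turned.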

Other observations

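OSCAR and MIA2 in Hth83 and TGM2 in Fadu, all on the lists of collagen handling, had larger log2 fold changes than any collagen chain over 10 CPM in the same line. In Hth83 OSCAR, a receptor for collagen known from osteoclasts, had 2.80, 4.66 and 2.54 CPM in CAP against 29.7, 33 and 43.8 CPM in Control libraries (log2 fold change -3.42 ± 0.25, adjusted p = 1.94e-05, edgeR). MIA2, which helps large cargo such as procollagen leave the endoplasmic reticulum, had 33.5, 36.4 and 33.1 CPM in CAP against 121, 116 and 137 CPM in Control libraries of Hth83 (log2 fold change -1.86 ± 0.06, adjusted p = 3.06e-20). The prolyl 3-hydroxylase P3H2 and the procollagen protease ADAMTS3 rose there, with log2 fold changes of 0.85 ± 0.08 (adjusted p = 7.58e-10) and 0.82 ± 0.08 (adjusted p = 1.66e-09).

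In Fadu the crosslinking enzyme TGM2 had 10.7, 8.48 and 9.44 CPM in CAP against 28.2, 34.6 and 37.1 CPM in Control libraries (log2 fold change -1.81 ± 0.09, adjusted p = 1.19e-25). FKBP10, a folding factor of procollagen, had 334, 329 and 339 CPM in CAP against 198, 198 and 202 CPM in Control libraries of Fadu (log2 fold change 0.75 ± 0.03, adjusted p = 3.56e-36). The CAP and Control libraries did not overlap for any of these genes, which were picked for their small adjusted p. Of all genes tested, 57.2% in Hth83 and 58.6% in Fadu did not overlap either.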
